A study of Mus musculus with 6 samples.

Results

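The transcripts of the mitochondrial genome were followed in mouse retina after excitotoxic damage, with and without stem cell factor. Members were all genes whose symbol starts with mt- and whose transcript was listed in the files of all 6 libraries. This gave 13 genes, 11 mRNAs and 2 rRNAs, of 25202 genes that were not at 0 in every library. The annotation holds 37 mt- genes, namely 13 mRNAs, 2 rRNAs and 22 tRNAs. The mRNA mt-Nd4l was listed only in NMDA-2 and NMDA-3, and values of mt-Nd6 and of the tRNAs were not analysed here.

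The mitochondrial genome is a small circle present in many copies per cell. Its mRNAs encode core subunits of respiratory complexes I, III and IV and of the ATP synthase (complex V), while all other subunits come from nuclear genes and are imported. Both strands are transcribed as long precursors, which are cut at tRNAs and then polyadenylated. Photoreceptors pack mitochondria densely into their inner segments, and the retina is among the tissues with the highest oxygen use.

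All 6 libraries came from retinas of wild type C57BL/6 mice (C57BL/6J in the methods), labelled as post natal week 5 (4 weeks at the start according to the methods). Each mouse received an intravitreal injection of 2 μl of 100 mM NMDA, which overstimulates glutamate receptors and kills ganglion cells. After 2 days, PBS was injected for 3 libraries (NMDA-1, NMDA-2 and NMDA-3), and 2 μl of SCF, the ligand of c-kit, at 50 ng/μl for the other 3 (SCF-1, SCF-2 and SCF-3). Retinas were taken 1 week after that second injection, and mRNA was enriched with oligo (dT) beads. No library of undamaged retina was part of the comparison. The number of mice behind a library is not given in the sources used here, so p-values measure only the spread between these libraries.

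Values are FPKM, fragments scaled to transcript length and to the counted fragments of the library, which can be compared between genes of different length. Counted fragments, recovered from FPKM and transcript length, numbered 3404336, 3977111 and 4440581 in NMDA-1, NMDA-2 and NMDA-3 and 3426326, 3479957 and 3458475 in SCF-1, SCF-2 and SCF-3. The files followed 2 transcript lists, A in NMDA-1 and the 3 SCF libraries and B in NMDA-2 and NMDA-3. List B held NMDA libraries only, so for NMDA-2 and NMDA-3 the list and the treatment cannot be told apart, and NMDA-1 was the only control with the same list as the SCF libraries.

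The 13 mitochondrial genes took a smaller share of the transcriptome in every SCF library than in any NMDA library. Their summed FPKM was 23.4, 16.9 and 20.9% of the FPKM of the 46933 Ensembl transcripts listed in all 6 files, in NMDA-1, NMDA-2 and NMDA-3. It was 12.3, 11.9 and 12.3% in SCF-1, SCF-2 and SCF-3. The SCF libraries lay close together, whereas the NMDA libraries were spread widely and all lay above them. The mean was 20.4% ± 3.27 (SD, n = 3) in NMDA and 12.1% ± 0.238 (SD, n = 3) in SCF, a ratio of SCF to NMDA of 0.595. The exact two-sided permutation test gave p = 0.1, the smallest value that 3 libraries against 3 can reach. In list A alone the ratio of the SCF mean to NMDA-1 was 0.519, with 1 control library and no test, and against the mean of NMDA-2 and NMDA-3 it was 0.642. In bulk retina, fewer cells rich in mitochondria and less mitochondrial RNA per cell cannot be told apart.

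The SCF libraries were also below the NMDA libraries when fragments were counted without scaling to length. Mitochondrial genes held 12.3% (Wilson 95% interval 12.2 to 12.3), 7.50% (7.48 to 7.53) and 8.77% (8.74 to 8.80) of the counted fragments in NMDA-1, NMDA-2 and NMDA-3. They held 5.86% (5.83 to 5.88), 5.60% (5.57 to 5.62) and 6.10% (6.08 to 6.13) in SCF-1, SCF-2 and SCF-3. The intervals, which cover counting error only, were narrower than the gaps between libraries. As a share of the clean read pairs, mitochondrial fragments made up 1.58% ± 0.295 (SD, n = 3) in NMDA and 0.848% ± 0.0554 (SD, n = 3) in SCF, without overlap (exact permutation p = 0.1). The FPKM of all other genes summed to 282457 ± 32607 (SD, n = 3) in NMDA and 326923 ± 11068 (SD, n = 3) in SCF.

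**Figure D1:**
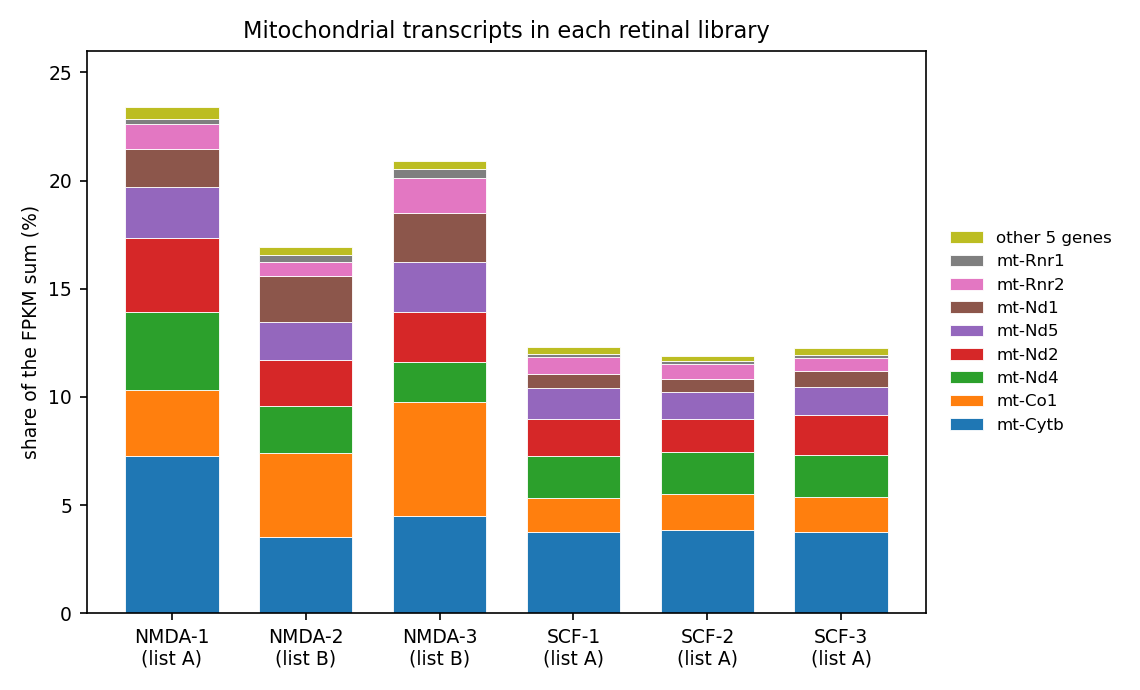
Share of the FPKM sum taken by mitochondrial genes (%, vertical axis) in each library, with the transcript list of its file; each bar segment is 1 gene, and the top segment holds the other 5 genes. The SCF bars end between 11.9 and 12.3%, and the NMDA bars between 16.9 and 23.4%.

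Mitochondrial mRNAs were the most abundant transcripts of these retinas. Ranked by mean FPKM over the 6 libraries, mt-Cytb, mt-Co1, mt-Nd4, mt-Nd2, mt-Nd5 and mt-Nd1 held ranks 1 to 6 of all 25202 genes, with means of 16322, 10110.2, 8281, 7939, 6300.2 and 4841 FPKM. They also held ranks 1 to 6 in each NMDA library, whereas in SCF-1, SCF-2 and SCF-3 mt-Nd1 was at rank 14, 13 and 11 and mt-Nd5 at rank 5, 5 and 7, and the other 4 kept ranks 1 to 4. By the mean over the 6 libraries the rRNA mt-Rnr2 came at rank 9, behind Rplp1, a ribosomal protein gene, and Rom1, a photoreceptor disc gene. The other mitochondrial mRNAs lay far lower, with means of 373 for mt-Nd3, 360.4 for mt-Co2, 293 for mt-Atp6, 221 for mt-Co3 and 10.7 for mt-Atp8. The ranges of most neighbours in this order overlapped across libraries, for example 5833 to 14725 FPKM for mt-Nd4 and 5571 to 14131 FPKM for mt-Nd2. They did not overlap for mt-Rnr2 (2219 to 5133 FPKM) and mt-Rnr1 (486 to 1289 FPKM). Nor did they for mt-Co3 (148 to 394 FPKM) and mt-Atp8 (2.21 to 15.6 FPKM). The rRNA mt-Rnr1 stood between the high and the low mRNAs at 869 FPKM, and mt-Atp8 had the least depth, with 2 to 12 fragments per library.

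Grouped by complex, the mRNAs of complex I, which takes electrons from NADH, had an almost constant share of the mitochondrial mRNA. The 5 measured members together made up 51.5, 52.3 and 46.8% in NMDA-1, NMDA-2 and NMDA-3 and 51.8, 48.5 and 50.9% in SCF-1, SCF-2 and SCF-3. The groups overlapped (exact permutation p = 0.9, n = 3 and 3). For complex III, which passes electrons to cytochrome c and has mt-Cytb as its mitochondrial member, the share was 33.0, 22.0 and 23.8% in the NMDA libraries and 32.9, 34.6 and 32.5% in the SCF libraries. The 3 members of complex IV, the oxygen-consuming cytochrome c oxidase, showed the opposite, with 15.1, 25.2 and 28.7% in the NMDA libraries and 14.8, 16.3 and 15.8% in the SCF libraries. For both complexes NMDA-1 lay beside the SCF libraries and NMDA-2 and NMDA-3, the libraries of list B, stood apart. The 2 mRNAs of complex V had 0.425, 0.436 and 0.697% in the NMDA libraries and 0.496, 0.595 and 0.774% in the SCF libraries, which overlapped.

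Among the complex I mRNAs, mt-Nd1, a membrane subunit at the quinone site, differed most clearly between the groups. It had 7138, 7264 and 7097 FPKM in NMDA-1, NMDA-2 and NMDA-3 and 2433, 2149.6 and 2966 FPKM in SCF-1, SCF-2 and SCF-3. The NMDA libraries of both lists lay close together and every SCF library lay below them. The log2 fold change of SCF against NMDA on log2(FPKM + 1) was -1.52 (95% interval -2.26 to -0.78; limma unadjusted p = 0.00173, adjusted p = 0.536). Its share of the mitochondrial mRNA was also lower, at 7.92, 13.4 and 11.9% in the NMDA libraries and 5.83, 5.36 and 6.66% in the SCF libraries (exact permutation p = 0.1), again without overlap. In SCF the level of mt-Nd1 was thus lower relative to the other mitochondrial mRNAs too. Of the other mitochondrial genes, only mt-Nd4 and mt-Co3 were without overlap as a share, and both were higher in SCF. The shares of mt-Co1, mt-Nd2 and mt-Nd5 overlapped between the groups (exact permutation p = 0.3, 0.4 and 0.5). So did mt-Rnr1 as a share of all mitochondrial FPKM (exact permutation p = 0.3). How common such a separation of shares is over all genes was not tested.

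The large complex I mRNAs other than mt-Nd1 were highest in NMDA-1. For mt-Nd2, which like mt-Nd4 and mt-Nd5 encodes a proton-pumping subunit, the values were 14131, 7291 and 7294 FPKM in the NMDA libraries and 6209.7, 5571 and 7136 FPKM in the SCF libraries. The groups did not overlap, but SCF-3 lay just under NMDA-2 and NMDA-3. The level of mt-Nd5 was 9680.5, 5953 and 7324 FPKM in the NMDA libraries and 5273, 4589 and 4982 FPKM in the SCF libraries, with all SCF libraries lower. For mt-Nd4 the values were 14725, 7367 and 5833 FPKM in the NMDA libraries and 7219, 7041 and 7503.5 FPKM in the SCF libraries. Here only NMDA-1 was high, and NMDA-2 and NMDA-3 lay around the SCF values. As a share of the mitochondrial mRNA, mt-Nd4 was higher in SCF (17.3, 17.5 and 16.8%) than in NMDA (16.3, 13.6 and 9.81%), without overlap (exact permutation p = 0.1), although NMDA-1 was close to the SCF libraries. The log2 fold changes were -0.54 for mt-Nd2, -0.60 for mt-Nd5 and -0.24 for mt-Nd4 (limma adjusted p = 0.688, 0.610 and 0.861). Without NMDA-1, that of mt-Nd2 was -0.22 and that of mt-Nd4 turned to 0.15.

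The small subunit mRNA mt-Nd3 had 788, 525 and 276 FPKM in the NMDA libraries and 465, 101 and 81.4 FPKM in the SCF libraries. SCF-2 and SCF-3 were the lowest, and SCF-1 lay between NMDA-2 and NMDA-3. The log2 fold change was -1.63 (limma unadjusted p = 0.0485, adjusted p = 0.536). It was -2.41 without SCF-1, and it turned to 0.24 once the values of a near-identical copy on chromosome 1 were added, an alternative chosen after the data were seen. The partner mRNA mt-Nd4l had 160.9 FPKM in NMDA-2 and 102 FPKM in NMDA-3, from 190 and 134 fragments, and has no comparison with SCF.

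The mRNA of cytochrome b, mt-Cytb, was the most abundant in 4 libraries and had the widest range within a group in FPKM. It had 29743, 11954 and 14145 FPKM in NMDA-1, NMDA-2 and NMDA-3 and 13729, 13876 and 14483 FPKM in SCF-1, SCF-2 and SCF-3. NMDA-1 was high alone, and the SCF libraries lay within the range of NMDA-2 and NMDA-3 or just above it. The log2 fold change of -0.29 (limma adjusted p = 0.858) turned to 0.11 without NMDA-1.

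In complex IV, mt-Co1, the catalytic subunit, was lower in SCF than in the NMDA libraries of either list. Its values were 12608, 13328 and 16639 FPKM in the NMDA libraries and 5748, 6048 and 6290.4 FPKM in the SCF libraries. The groups were well separated, with the highest SCF library far below NMDA-1, the lowest NMDA library. The log2 fold change was -1.23 (95% interval -2.14 to -0.31; limma unadjusted p = 0.0158, adjusted p = 0.536). The copper subunit mRNA mt-Co2 had 693, 235 and 290.1 FPKM in the NMDA libraries and 273, 314 and 358 FPKM in the SCF libraries, so that NMDA-1 was high and the others overlapped. For mt-Co3 the values were 289, 148 and 151 FPKM in the NMDA libraries and 149, 195 and 394 FPKM in the SCF libraries, with the highest value in SCF-3 and overlapping groups. Its share of the mitochondrial mRNA was small but higher in SCF (0.358, 0.485 and 0.884%) than in NMDA (0.320, 0.272 and 0.254%), without overlap (exact permutation p = 0.1). A copy of mt-Co3 on chromosome 1, Gm28437, held 47.0, 43.0 and 44.4% of the pair's FPKM in the NMDA libraries. In SCF-1, SCF-2 and SCF-3 it held 46.0, 66.3 and 35.9%. The part of this split in the share of mt-Co3 was not tested. Log2 fold changes were -0.21 for mt-Co2 and 0.27 for mt-Co3 (limma adjusted p = 0.862 and 0.822), and the sign of mt-Co2 turned without NMDA-1 (0.26) and that of mt-Co3 without SCF-3 (-0.13).

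The 2 mRNAs of the ATP synthase are made from 1 shared transcript, yet their values were far apart. The proton channel subunit mRNA mt-Atp6 had 369, 222 and 412 FPKM in the NMDA libraries and 199.7, 229 and 329 FPKM in the SCF libraries. For mt-Atp8 they were 14.4, 14.8 and 2.21 FPKM in the NMDA libraries and 7.15, 9.86 and 15.6 FPKM in the SCF libraries. Groups overlapped for both, and the value of mt-Atp8 in NMDA-3 rested on 2 fragments, under the floor of 3 used here. Per kilobase, mt-Atp6 was between 15.0 and 27.9 times mt-Atp8 in the 5 libraries other than NMDA-3. At 204 bases mt-Atp8 is the shortest of the 13 transcripts, and the part of transcript length or of shared sequence in this gap was not tested.

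The rRNAs carry only short adenine tails, so their level here is that of the part captured on oligo (dT) beads. The small-subunit rRNA mt-Rnr1 had 1097, 1158 and 1289 FPKM in NMDA-1, NMDA-2 and NMDA-3 and 582, 486 and 599 FPKM in SCF-1, SCF-2 and SCF-3. The NMDA libraries of both lists agreed closely and all SCF libraries lay below them, a log2 fold change of -1.09 (95% interval -1.59 to -0.59; limma unadjusted p = 0.00119, adjusted p = 0.536). The large-subunit rRNA mt-Rnr2 had 4759, 2219 and 5133 FPKM in the NMDA libraries and 2831, 2415 and 2326 FPKM in the SCF libraries. NMDA-2 fell among the SCF values, so the groups overlapped (log2 fold change -0.59, limma adjusted p = 0.650). The log2 fold change was -0.97 without NMDA-2 and -0.37 without NMDA-3. The 2 rRNAs lie next to each other on the same precursor, and mt-Rnr2 was 4.34, 1.92 and 3.98 times mt-Rnr1 in the NMDA libraries and 4.87, 4.97 and 3.88 times in the SCF libraries, lowest in NMDA-2.

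Summed, the rRNAs amounted to 6.49, 6.22 and 10.8% of the mitochondrial mRNA in the NMDA libraries and to 8.18, 7.23 and 6.57% in the SCF libraries. NMDA-3 was the highest and the other 5 libraries lay between 6.22 and 8.18%. The means of 7.84% ± 2.57 (SD, n = 3) and 7.33% ± 0.812 (SD, n = 3) did not differ beyond this spread (exact permutation p = 1). The lower mitochondrial share in SCF thus came with rRNA and mRNA in a ratio inside the range of the NMDA libraries.

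**Figure D2:**
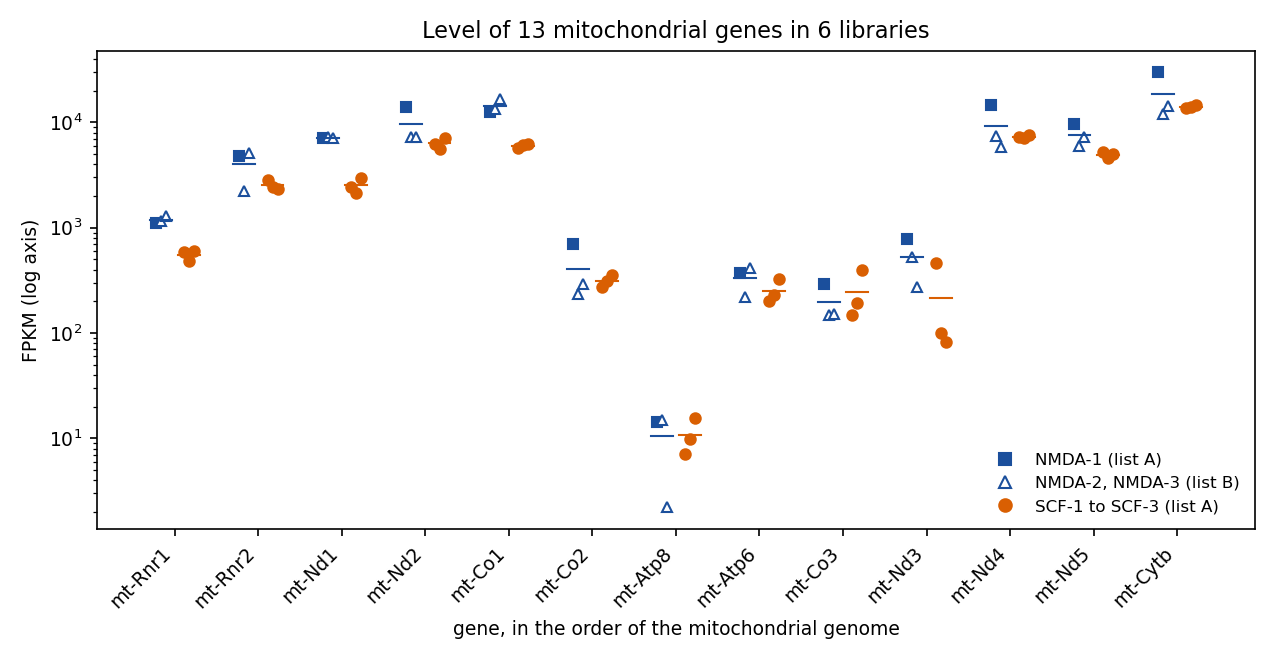
FPKM (log axis) of the 13 mitochondrial genes in map order, with 1 point per library and a line at each group mean. The SCF points lie below all NMDA points for mt-Rnr1, mt-Nd1, mt-Nd2, mt-Co1 and mt-Nd5, and NMDA-1 (filled squares) lies above NMDA-2 and NMDA-3 for mt-Nd2, mt-Co2, mt-Nd4 and mt-Cytb, among others.

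By limma with Benjamini-Hochberg adjustment over all genes, 0 of the 13 passed a fold of 2 together with an adjusted p of 0.001, as did 0% of the 25202 genes. With an adjusted p of 0.05 as the limit the counts were also 0 of 13 and 0% of all genes. At an unadjusted p of at most 0.05, 4 were lower in SCF (mt-Rnr1, mt-Nd1, mt-Co1 and mt-Nd3) and 0 were higher, where the test found 4.9% of all genes lower and 4.33% higher. The count of 4 became 2 or 3 when any 1 library was left out, and 3 with the replicate block. With the values of copies on chromosome 1 added, an alternative chosen after the data were seen, it was also 3. It was 6 with voom or with rescaling without mitochondrial genes. Over all genes, 4404 of 25202 passed without NMDA-1, where the mitochondrial count was 3, beside 2324 with all libraries. For 5 of the 13 genes all SCF libraries lay below all NMDA libraries, and for 0 above, against 6.45% of all genes lower and 7.63% higher, and against 2.56% lower among the 507 genes with a mean of at least 100 FPKM. Log2 fold changes were negative for 11 of 13 genes, with a median of -0.54 (-0.29 without NMDA-1) beside -0.01 over all genes. The count of 11 was the same under upper quartile scaling, median-of-ratios scaling and rescaling without mitochondrial genes. It became 8 without NMDA-1, 12 without NMDA-3 or SCF-3, and 10 with the chromosome 1 copies added. The 5 genes stayed apart under these 3 scalings, joined by mt-Nd4 under the last. With voom on recovered fragments, 2 genes passed an adjusted p of 0.05, mt-Nd1 (0.00141) and mt-Co1 (0.0362), and they were the only 2 of 25169 genes (0.00795%). Without NMDA-1 limma gave mt-Rnr1 an adjusted p of 0.0421, where 849 of 25202 genes (3.37%) passed 0.05 and all remaining controls were of list B. Over all alternatives the adjusted p ranged from 0.00141 to 0.752 for mt-Nd1, from 0.0362 to 0.752 for mt-Co1 and from 0.0421 to 0.752 for mt-Rnr1.

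Set within the transcript lists, the size of the difference varied between genes. Against NMDA-1, which shares list A, all 3 SCF libraries were lower for 11 of 13 genes, where 23.6% of all genes, and 32.9% of the genes with a mean of at least 100 FPKM, had that pattern. For these 11 genes NMDA-1 was between 1.46 and 3.65 times the SCF mean, with a median of 2.09. Several genes lay close to that median, such as mt-Cytb at 2.12, mt-Co1 at 2.09, mt-Nd4 at 2.03 and mt-Rnr1 at 1.97 times. Against NMDA-2 and NMDA-3 the picture was uneven. The mean of those libraries was 2.85 times the SCF mean for mt-Nd1, 2.49 times for mt-Co1 and 2.20 times for mt-Rnr1. It was 1.86 times for mt-Nd3, 1.46 times for mt-Rnr2, 1.34 times for mt-Nd5, 1.26 times for mt-Atp6 and 1.16 times for mt-Nd2, and under 1 for the other 5 genes, among them mt-Cytb (0.930) and mt-Nd4 (0.910). Thus mt-Nd1, mt-Co1, mt-Rnr1, mt-Nd5 and, by a small margin, mt-Nd2 were lower in every SCF library than in the controls of both lists. In FPKM, the difference of mt-Nd4 and mt-Cytb was seen against NMDA-1 alone. With rescaling without mitochondrial genes, mt-Nd4 was also lower in every SCF library than in the controls of both lists. The comparison with NMDA-1 has no test, since it is 1 library, and the comparison with NMDA-2 and NMDA-3 is the fit without NMDA-1 given above, in which list and treatment cannot be told apart.

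The mitochondrial genes also differ in how far their sequence is their own. Pieces of mitochondrial DNA have been copied into nuclear chromosomes during evolution, and a read from such a stretch can be assigned to either place. Among annotated transcripts, 7 unprocessed pseudogenes on the minus strand of chromosome 1 (GRCm38, chr1:24611535-24616197) repeat the mitochondrial genome in the same gene order. They are Gm29216 (the end of mt-Co1), Gm28661 (mt-Co2), Gm10925 (mt-Atp6), Gm28437 (mt-Co3), Gm28438 (mt-Nd3), Gm10222 (mt-Nd4l) and Gm28439 (the first 876 bases of mt-Nd4). The copies of mt-Co2, mt-Atp6, mt-Co3, mt-Nd4l and mt-Nd4 had 0 mismatches over the aligned length. Windows of 100 bases that occur unchanged in another annotated transcript made up 99.5% of mt-Co2, 99.5% of mt-Atp6, 99.9% of mt-Co3, 97.6% of mt-Nd3, 60.8% of mt-Nd4, 30.8% of mt-Co1 and 3.19% of mt-Nd2. The share was 0% for the other 6 genes, mt-Rnr1, mt-Rnr2, mt-Nd1, mt-Atp8, mt-Nd5 and mt-Cytb. With windows of 50 bases the share was 51.1% for mt-Co1, 8.19% for mt-Nd2, 7.61% for mt-Nd5 and 1.04% for mt-Rnr2, and it stayed at 0% for mt-Rnr1, mt-Nd1, mt-Atp8 and mt-Cytb. The share of FPKM of the 6 genes at 0% with 100 bases had a log2 ratio of SCF to NMDA of -0.70, and that of all 13 genes -0.75 (an alternative added after the data were seen).

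The 4 measured genes with such a copy over more than 95% of their windows were also those with a mean between 221 and 373 FPKM. They held 2.11% of the mitochondrial FPKM. Of the 9 others, only mt-Atp8 had a lower mean, and the next was mt-Rnr1 at 869 FPKM. With the copy's FPKM added, mt-Co2 and Gm28661 summed to 965, 374 and 396 FPKM in the NMDA libraries and to 394, 431 and 498 FPKM in the SCF libraries. All 7 copies together had 1215, 703 and 589.9 FPKM in the NMDA libraries and 555, 1397 and 1416 FPKM in the SCF libraries, or between 0.887 and 3.15% of mitochondrial genes and copies combined. Whether fragments that match both places were dropped, shared or assigned to 1 of them is not given in the sources used here, and their part in the low levels was not tested.

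The pair of mt-Nd3 and Gm28438 was split differently between libraries. Gm28438 had 68.1, 51.0 and 9.79 FPKM in NMDA-1, NMDA-2 and NMDA-3 and 49.9, 542 and 617 FPKM in SCF-1, SCF-2 and SCF-3. It held 7.96, 8.85 and 3.43% of the pair's FPKM in the NMDA libraries and 9.70% in SCF-1, but 84.3 and 88.3% in SCF-2 and SCF-3, the libraries where mt-Nd3 was lowest. The pair summed to 856, 576 and 285 FPKM in the NMDA libraries and to 515, 643 and 698 FPKM in the SCF libraries, with overlapping groups (exact permutation p = 0.8). In the 345 aligned bases the copy differs at 1 position, T3C, counted from 1 at the 5′ end of mt-Nd3 with the mitochondrial base first. The first 40 bases of each are shown with the base that differs in capitals, mt-Nd3 from chrMT:9459-9498 (plus strand) and Gm28438 from chr1:24613080-24613119 (minus strand), both GRCm38.
mt-Nd3: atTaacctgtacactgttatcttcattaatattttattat
Gm28438: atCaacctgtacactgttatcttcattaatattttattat
A fragment inside the aligned part that misses that base matches both transcripts, so the split between them is uncertain.

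**Figure D3:**
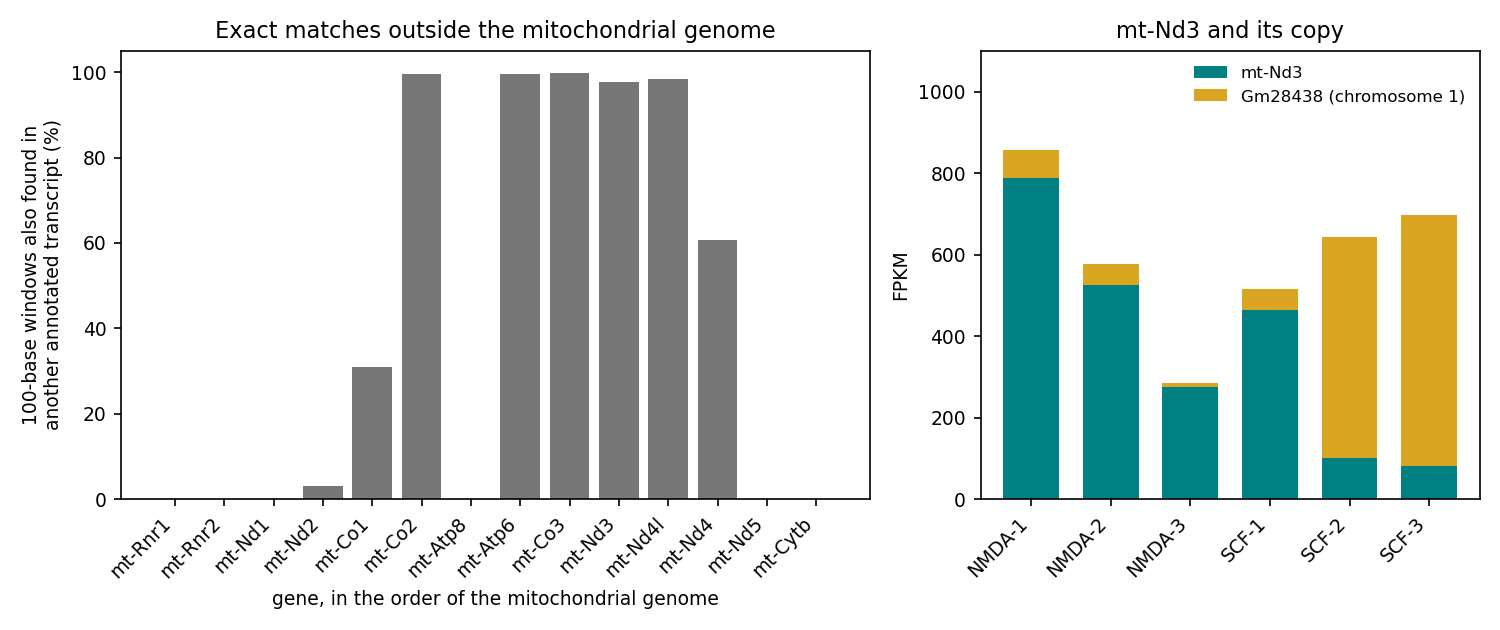
Left, percent of 100-base windows of each of 14 mitochondrial genes that occur unchanged in another annotated transcript (97.6% for mt-Nd3, 0% for mt-Nd1); right, FPKM of mt-Nd3 and of its copy Gm28438 stacked in each library. The copy holds 84.3 and 88.3% of the pair in SCF-2 and SCF-3 and less than 10% in the other 4 libraries.

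A more diverged copy had low values. Gm13340 on chromosome 2 aligns to all 1545 bases of mt-Co1 with 97.6% identity and 37 mismatches, and its level was between 7.37 and 17.2 FPKM, beside 5748 FPKM in the lowest library of mt-Co1. Its first 60 bases hold 2 of the mismatches, in capitals, and are printed beside those of mt-Co1 to show how sparse the distinguishing bases are (mt-Co1 from chrMT:5328-5387, plus strand; Gm13340 from chr2:22589588-22589647, minus strand; GRCm38).
mt-Co1: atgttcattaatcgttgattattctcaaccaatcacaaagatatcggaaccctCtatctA
Gm13340: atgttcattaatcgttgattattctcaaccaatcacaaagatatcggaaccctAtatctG

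Neighbouring genes share bases inside the mitochondrial genome as well. The end of mt-Atp8 and the start of mt-Atp6 overlap by 43 bases (chrMT:7927-7969), mt-Nd4l and mt-Nd4 by 7 bases, and mt-Atp6 and mt-Co3 by 1 base. A fragment inside the 43 bases would belong to both ATP synthase mRNAs, and the effect of this on the value of mt-Atp8 was not tested. The last 51 bases of mt-Atp8 (chrMT:7919-7969, plus strand, GRCm38) are shown with the bases of both genes in capitals, beginning with the start codon of mt-Atp6.
mt-Atp8 end and mt-Atp6 start: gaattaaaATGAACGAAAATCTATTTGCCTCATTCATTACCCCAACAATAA
Of the 12 mRNAs listed in any file, 9 end in a whole stop codon in the annotation and 3, mt-Co3, mt-Nd4 and mt-Cytb, end in a lone T. Adenines added after cleavage complete such a stop codon, and the same tails let mitochondrial mRNAs bind to oligo (dT) beads. The end of mt-Cytb, the most abundant of them (chrMT:15259-15288, plus strand, GRCm38), is shown with its last annotated base in capitals.
mt-Cytb end: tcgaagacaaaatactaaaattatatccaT

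Nuclear genes that make, process and translate mitochondrial RNA had list medians of the log2 fold change between -0.04 and 0.18, beside -0.54 for the 13 mitochondrial genes and -0.01 for all genes. Counts of higher and lower genes in these lists, and in the marker lists below, stand beside 4.33% higher and 4.9% lower over all 25202 genes. Of 15 measured of 17 listed genes for mitochondrial transcription and DNA maintenance, 0 were higher and 1 was lower by limma at an unadjusted p of 0.05 or less (median -0.04). The mitochondrial RNA polymerase gene Polrmt was listed at 0, 3.67 and 1.64 FPKM in the NMDA libraries and at 0.710, 0 and 0 FPKM in the SCF libraries. Tfam, which packs mitochondrial DNA and starts transcription, had 19.6, 16.7 and 14.9 FPKM in the NMDA libraries and 16.4, 21.2 and 23.8 FPKM in the SCF libraries, with overlap. Tfb2m, which opens the promoter for the polymerase, was the lower gene, with 5.77, 15.6 and 15.6 FPKM in the NMDA libraries and 6.09, 5.65 and 1.77 FPKM in the SCF libraries, where NMDA-1 lay beside SCF-1. Mterf3 and Top1mt, the mitochondrial topoisomerase gene, had group means of 41.1 and 0.696 FPKM in NMDA and 27.3 and 1.43 FPKM in SCF (limma adjusted p = 0.545 and 0.617). Mterf3 had 27.0 FPKM in NMDA-1, within the range of the SCF libraries (26.4, 26.1 and 29.6 FPKM), and 45.8 and 50.3 FPKM in NMDA-2 and NMDA-3.

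For RNA processing and stability, 15 of 18 listed genes were measured, of which 0 were higher and 1 was lower (median 0.08). The partners Lrpprc and Slirp, which bind and stabilise mitochondrial mRNA, had 3.33, 4.64 and 8.92 FPKM and 0.366, 0.314 and 3.65 FPKM in the NMDA libraries, and Lrpprc had 3.91, 5.87 and 3.36 FPKM in the SCF libraries, where Slirp was listed at 0 in all 3. Prorp, the protein that cuts the 5′ ends of mitochondrial tRNAs, was the lower gene, with 0.331, 1.13 and 1.27 FPKM in the NMDA libraries and 0, 0 and 0.326 FPKM in the SCF libraries. Grsf1, of mitochondrial RNA granules, had 12.6, 12.6 and 0.621 FPKM in the NMDA libraries and 19.3, 13.8 and 14.1 FPKM in the SCF libraries, and Fastkd5, of mRNA maturation, had means of 1.44 and 2.43 FPKM.

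All 8 translation factors were measured, with 0 higher and 0 lower (median 0.18); the elongation factor genes Tufm and Gfm1 had means of 3.41 and 11.98 FPKM in NMDA and 5.76 and 14.4 FPKM in SCF, and the initiation factor genes Mtif2 and Mtif3 3.96 and 2.35 FPKM in NMDA and 2.89 and 1.82 FPKM in SCF. Of the 75 mitoribosomal proteins, 6 were higher and 3 lower (median 0.08), among them Mrpl51 (means 3.26 and 7.45 FPKM), Mrpl4 (7.55 and 13.5), Mrps36 (1.05 and 0.174) and Mrpl32 (9.07 and 2.03). Mrpl32 had 2.43 FPKM in NMDA-1, near the SCF libraries (2.21, 2.08 and 1.79 FPKM), and 12.5 and 12.3 FPKM in NMDA-2 and NMDA-3. Mrps36 had 0.529 FPKM in NMDA-1, just above SCF-3 (0, 0 and 0.521 FPKM in the SCF libraries), and 1.08 and 1.54 FPKM in NMDA-2 and NMDA-3. The 8 biogenesis regulators had 0 higher and 0 lower (median 0.12). Ppargc1a, the coactivator that drives mitochondrial biogenesis, had 16.996, 18.9 and 24.6 FPKM in the NMDA libraries and 18.2, 23.2 and 17.3 FPKM in the SCF libraries. Yy1 (means 70.4 and 87.7 FPKM), Pprc1 (5.16 and 6.36) and Nrf1 (3.48 and 1.99) stayed above an unadjusted p of 0.05 as well.

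Nuclear subunits of the respiratory chain, which assemble with the mitochondrial ones, had 2 higher and 1 lower of 20 (median 0.05). Their summed FPKM was 592, 853 and 1099 in the NMDA libraries and 593, 581 and 694 in the SCF libraries. Without Uqcrfs1, left out after its values were seen, the sums were 592, 593 and 913 and 593, 581 and 693, so that NMDA-3 alone was high. Uqcrc1 of complex III had 59.1, 49.1 and 15.8 FPKM in the NMDA libraries and 81.1, 84.8 and 94.8 FPKM in the SCF libraries, without overlap (limma unadjusted p = 0.0274, adjusted p = 0.536) and with the opposite direction to mt-Nd1 and mt-Co1. Atp5b, the catalytic ATP synthase subunit, had 246, 229 and 609 FPKM in the NMDA libraries and 171, 149.8 and 244 FPKM in the SCF libraries, highest in NMDA-3 (limma adjusted p = 0.545).

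Some nuclear genes had values that went with the transcript list. Uqcrfs1 of complex III had 0.431 FPKM in NMDA-1, 259.6 and 186 FPKM in NMDA-2 and NMDA-3, and 0.214, 0 and 1.27 FPKM in the SCF libraries. Gabpa, a regulator of biogenesis, had 0.118 FPKM in NMDA-1, 27.6 and 29.8 FPKM in NMDA-2 and NMDA-3, and 0.410, 0.346 and 0.638 FPKM in the SCF libraries. Among nuclear-retained long RNAs, of which 4 of 5 were measured with 0 higher and 1 lower (median -0.19), Malat1 had 0.0421 FPKM in NMDA-1, 55.7 and 69.5 FPKM in NMDA-2 and NMDA-3, and 0.125, 0 and 0 FPKM in the SCF libraries. In all 3 genes NMDA-1 was as low as SCF. In the mitochondrial share NMDA-1 was the highest library, and the part of the transcript list in that share was not tested. Kcnq1ot1 (means 2.56 and 1.64 FPKM) and Meg3 (0.886 and 1.08) were low, and Neat1 was listed at 0 in 5 libraries and at 0.0281 FPKM in SCF-1.

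Markers of cell types were set beside the mitochondrial share. Rod markers, 7 of 8 measured and led by Pde6a, summed to 3198, 2712 and 3123 FPKM in the NMDA libraries and 3743, 3262 and 3154 FPKM in the SCF libraries, with 2 higher, 0 lower and no marker at 0. Müller glia markers, 3 of 4 measured and led by Glul, summed to 3968, 2015 and 2247 FPKM and 3221, 3255 and 3068 FPKM, with 0 higher and 0 lower. Retinal ganglion cell markers, 5 of 6 measured and led by Sncg, summed to 417, 210.0 and 196 FPKM and 274, 236 and 283 FPKM, with 0 higher and 1 lower, and Rbpms was at 0 in SCF-1. The lower marker was Slc17a6, with 0.142 FPKM in NMDA-1, 5.90 and 8.74 FPKM in NMDA-2 and NMDA-3, and 0.0706, 0 and 0.353 FPKM in the SCF libraries, so that NMDA-1 lay among them. None of these 3 sums separated the groups as the mitochondrial share did.

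The sum of lens markers did separate them, with all 7 measured, 6 higher and 0 lower. Taken singly, 3 of the 7 had all SCF libraries above all NMDA libraries. For Cryaa, Cryba1, Crybb2 and Mip, SCF-2 lay below NMDA-3. Led by Crygs, the lens markers summed to 23.4, 170.4 and 295 FPKM in the NMDA libraries and 4759, 443 and 9042 FPKM in the SCF libraries, and Cryaa and Lim2 were at 0 in NMDA-1 and NMDA-2, as was Crybb2 in NMDA-1. They were 1.30, 0.122 and 2.34% of the FPKM sum in SCF-1, SCF-2 and SCF-3, whose mitochondrial shares were 12.3, 11.9 and 12.3%. SCF-2, with the fewest lens transcripts of the SCF libraries, had the lowest mitochondrial share of the 6 libraries. Erythroid markers, 3 of 5 measured and led by Hbb-bs, summed to 49.8, 38.6 and 26.4 FPKM in the NMDA libraries and 47.5, 111 and 235 FPKM in the SCF libraries, with 2 higher and 0 lower and Alas2 at 0 in NMDA-2. Markers of pigment epithelium (4 of 4, led by Lrat, 14.5 to 20.9 FPKM), muscle (4 of 8, led by Acta1, 7.62 to 18.4 FPKM, with Ckm at 0 in SCF-2), microglia (3 of 4, led by C1qa, 33.2 to 290.1 FPKM, with Cx3cr1 at 0 in NMDA-3 and the SCF libraries) and endothelium (2 of 2, led by Cldn5, 29.9 to 103 FPKM) had 0 higher and 0 lower. The part of cell composition in the mitochondrial share was not tested. Bases with a quality of at least 30 made up 94.3, 93.8 and 92.9% in the NMDA libraries and 93.7, 93.7 and 93.8% in the SCF libraries, which overlapped.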

How the data were processed

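RNA was sequenced on an Illumina HiSeq from 3 NMDA and 3 SCF libraries. For each library the authors deposited FPKM per transcript, and a table of read counts per library with the percent of reads kept and of bases of quality 20 or 30. Its 2 columns of base totals were not used. The submitters' processing notes list mm9, but 98.2% of 46852 transcript positions in the deposited files, and all 13 mitochondrial ones, equal GENCODE M21 (GRCm38), whose coordinates and sequences are given. The aligner and counter are not given in the sources used here.

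Gene values are sums of FPKM over 46933 Ensembl transcripts that both lists hold, and genes at 0 in all libraries were left out. Groups were compared with limma 3.58.1 (R 4.3.3) on log2(FPKM + 1), which understates changes of low genes, with a variance trend and Benjamini-Hochberg adjustment, and single values with exact two-sided permutation tests (Python 3.11.15). The method was tested on simulated data. FPKM times length was a whole number of fragments, within 0.05 fragments or the rounding of the file, for 98.4 to 98.5% of values above 0. Counted fragments were 14.1 to 18.2% of clean read pairs. Copies were sought with BLAST+ 2.17.0 (e-value 1e-10, word size 28) among annotated transcripts only, and plots were made with matplotlib 3.10.9.

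The members and lists were chosen with earlier results of these data known. Named genes are the mitochondrial genes, Polrmt, Tfam, Lrpprc, Slirp and Ppargc1a, the 2 genes of smallest unadjusted p in each direction from each list of nuclear mitochondrial genes and of nuclear-retained long RNAs. The result of 1 gene so chosen is not reported here. Copies, the marker genes and the neighbours in rank were named after their values were seen. Alternatives were a pseudocount of 0.1, a filter, 3 scalings, voom, a replicate block, other transcript sums and each library left out.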

Additional observations from a re-analysis of the deposited data

How the results depend on the processing

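The share of FPKM of the mitochondrial genes, as a log2 ratio of SCF to NMDA means, was -0.75, and it was -0.70 over all listed Ensembl transcripts, -0.73 over every row, -0.70 in recovered fragments and -0.73 with the copies added. Leaving out 1 library gave -0.87 to -0.64. In list A alone, with 1 control library, it was -0.95. The log2 ratio of rRNA to mRNA was -0.10 and ranged from -0.24 to 0.21 when 1 library was left out, its sign set by NMDA-3.

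The number of mitochondrial genes called (a fold of at least 2 and an adjusted p of at most 0.001) was 0 under every alternative run; at an adjusted p of 0.05, 2 passed with voom, 1 without NMDA-1 and 0 otherwise. Over all genes the number called was 0 under every alternative except 55 without NMDA-1 (0 to 55 over the libraries left out), where the remaining controls are all of list B and the SCF libraries all of list A. At an unadjusted p of at most 0.05 limma gave 2324 genes and voom 2514, and with 1 library left out limma gave from 1214 (without SCF-3) to 4404 (without NMDA-1); for mitochondrial genes the count of 4 became 2 or 3. With 1 library left out, log2 fold changes ranged from -0.52 to 0.26 for mt-Co2, -0.52 to 0.15 for mt-Nd4 and -0.55 to 0.11 for mt-Cytb (sign turned without NMDA-1), from -0.46 to 0.69 for mt-Atp8 (without NMDA-3) and from -0.13 to 0.59 for mt-Co3 (without SCF-3). Without a change of sign they ranged from -2.41 (without SCF-1) to -1.16 for mt-Nd3 (-1.63 with all libraries), from -0.69 to -0.22 (without NMDA-1) for mt-Nd2, from -0.77 to -0.42 for mt-Nd5, from -0.97 (without NMDA-2) to -0.37 for mt-Rnr2 and from -0.66 to -0.21 for mt-Atp6. Signs also turned in list A alone for mt-Atp8 (-0.44) and mt-Co3 (-0.36), and for mt-Nd3 with its copy added (0.24); the cause was not tested. These last settings, and the sums with copies, were chosen after the data were seen.

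No pairing by replicate number was seen. Deviations of same-numbered libraries had correlations of -0.05, -0.05 and -0.08 over 14013 genes, which are not independent replicates. With 3 libraries per group, and list B among the NMDA libraries only, this check cannot decide whether the libraries were paired. With the replicate block, 0 genes were called, and the log2 ratio of the share was -0.74 (exact sign-flip permutation p = 0.25, the smallest possible with 3 pairs). The ratio of light-strand to heavy-strand mRNA was not run, since mt-Nd6 was not analysed here. Depth limits mt-Atp8, with 2 to 12 fragments per library.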
